A study of Mus musculus with 2 samples.

Results

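Neutrophils of injured muscle were examined at 2 days after notexin, a snake venom toxin that destroys muscle fibres. They were the 996 barcodes that the deposited annotation names neutrophils, out of 3494 day 2 barcodes with a cell type and 6879 in both libraries of the series. Single-cell RNA sequencing had been performed with droplet 3′ chemistry on dissociated tibialis anterior (a shin muscle) from C57BL/6J mice. The series held 2 libraries, each from 1 mouse injected with notexin and carrying no other treatment or allele in the labels, 1 taken at day 2 and 1 at day 7. The labels give both mice as females of 7 months. No uninjured muscle was analysed here, and with 1 library at each time no value below has a replicate check. Intervals, in parentheses, are at the 95% level and take in counting error alone.

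Neutrophils are short-lived granulocytes that leave the blood early after tissue injury. They load their granules in the bone marrow, in an order that runs from primary (azurophil) through secondary (specific) to gelatinase granules. Primary and secondary granule transcripts thus mark earlier stages, and the receptors Csf3r and Cxcr2 mark mature cells. The calcium-binding proteins S100a8 and S100a9 are markers of neutrophils and are not read here as a measure of maturity. In injured muscle they clear debris, release proteases and oxidants, and secrete chemokines that draw in further neutrophils and monocytes, which follow them into the tissue.

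The sex recorded for the day 2 library went against its sequences. Neutrophils held 0 counts of Xist, the transcript of the inactive X chromosome, and 584 counts of 4 Y-linked genes, and over all called barcodes at day 2 the numbers were 5 and 6575. The deposited annotation gives this mouse as male and as 4 months old. Neutrophils and the monocytes they are compared with came from this same library, so the comparison does not run across the conflict. Of the called barcodes, 4 had the same sequence in both libraries, and 0 of these were neutrophils.

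Neutrophils made up 28.5% (27.01 to 30.03) of the typed day 2 cells and were the shallowest cells they were set against. They held a median of 2120 unique molecular identifier (UMI) counts per cell, with quartiles of 1681.5 and 2587.5 and a range from 1035 to 31023, and a median of 859.5 genes. Day 2 monocytes held medians of 8968 counts under the inflammatory label (276 cells), 14608 under the patrolling label (186 cells) and 10174.5 under the Cxcl10+ label (38 cells). The depth plot therefore shows nearly all neutrophils below nearly all monocytes. Of the neutrophils, 708 of 996, 71.1% (68.2 to 73.9), met the limits of 750 genes, 1000 transcripts and 30% mitochondrial transcripts given in the methods of the study, against 500 of 500 monocytes. With those limits the neutrophil share of typed cells was 22.3%. A share of barcodes cannot tell fewer cells from cells holding too little RNA to be called.

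The label was set beside its 5 markers S100a8, S100a9, Csf3r, Cxcr2 and Retnlg. The authors named clusters of these cells from canonical genes, so marker counts describe the label and do not test it. At full depth the median neutrophil held 52 marker counts and the median monocyte 1, and 969 neutrophils (97.3%, 96.1 to 98.2) held at least 2, as did 101 of the 500 deeper monocytes (20.2%, 16.8 to 23.99). After each cell was thinned to 1000 counts, 94.7% (93.1 to 96.0) of neutrophils and 1% (0.325 to 2.32) of monocytes still held at least 2. Free RNA, taken from barcodes of 1 to 100 counts, carried the 5 markers at 984 CPM (counts scaled to a common library total), between the 80.6 CPM of monocytes and the 34346 CPM of neutrophils. The remaining 27 neutrophils held fewer than 2 marker counts and did not show their label in these genes.

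**Figure D1:**
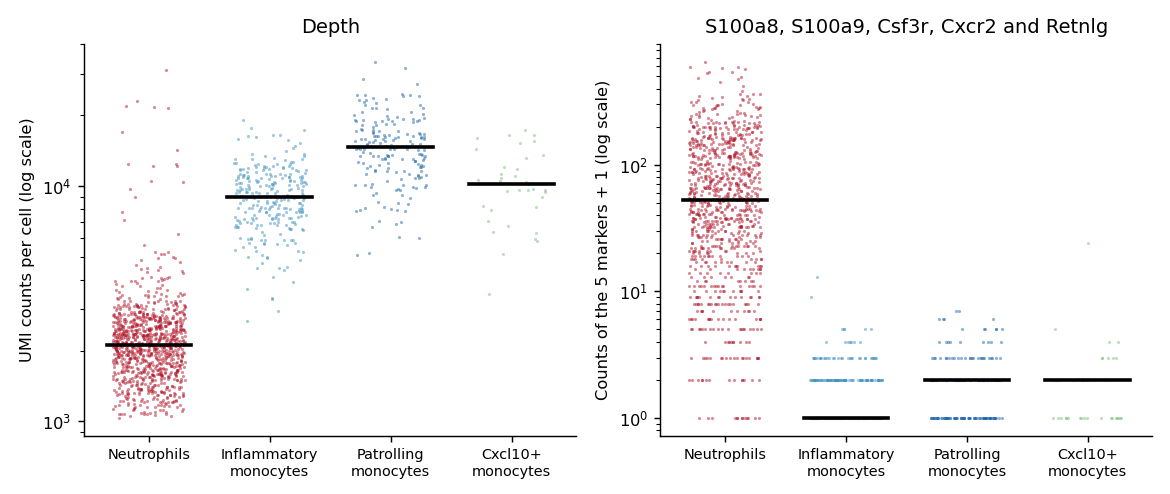
Each point is 1 day 2 cell and each bar a median, for neutrophils and the 3 monocyte labels. The left panel plots UMI counts per cell on a log scale, where the neutrophil median is 2120 and the monocyte medians run from 8968 to 14608. The right panel plots summed counts of the 5 neutrophil markers plus 1 on a log scale, where the neutrophil median is 52 counts and the medians of the 3 monocyte labels are 0 or 1.

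Markers of other cells were found at low counts in many neutrophils and at 3 counts or more in few. At least 1 count was held by 365 of 996 neutrophils for monocyte, 211 for endothelial, 200 for macrophage, 132 for eosinophil and 126 for smooth muscle markers. The eosinophil list, which holds Siglecf, stood at 69.8 CPM in neutrophils, 10.2 in monocytes and 5.24 in free RNA. Monocyte markers (Csf1r, Ccr2, Ly6c2, Fcgr1 and Ms4a6c) summed to 356 CPM in neutrophils, 2445 in monocytes and 454 in free RNA, and 66 neutrophils held at least 3 such counts. Macrophage markers (C1qa, C1qb, C1qc, Mrc1 and Adgre1) summed to 396, 2338 and 707 CPM, with 15 neutrophils at 3 counts or more. Of the remaining lists, at least 3 counts were found in 8 neutrophils for dendritic cells, 9 each for endothelium and smooth muscle, 5 for eosinophils, 3 for myofibres, 1 each for T and NK cells and for basophils and mast cells, and 0 for B cells and fibro-adipogenic progenitors. Haemoglobin genes reached 1995 CPM, yet 6 neutrophils held 98.7% of those counts. The 15 neutrophils of more than 8000 counts carried 9.98% of all neutrophil counts and 53.3% of the monocyte and macrophage marker counts. Ratios were therefore recomputed without neutrophils holding any macrophage marker count or more than 1 monocyte marker count, which left out 296 cells and kept 700. Values of this subset that moved by more than 1.5-fold are given beside the genes discussed, except for the lowest-ranked genes of 1 to 5 counts.

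Against the pooled counts of the 500 monocytes, the myeloid cells of the same library they are set against here, 7288 genes had at least 50 counts in either group. Of these, 1072 (14.7%) were at least 2-fold higher in neutrophils and 2738 (37.6%) at least 2-fold lower, with a median log2 ratio of -0.57. The labels were made by clustering cells on these same genes, so the ratios describe the neutrophils and test nothing. Part of the split came from scaling. With median-of-ratios factors in place of totals, which moved the median of all genes from -0.57 to -0.23, 1427 genes were higher and 2077 lower, so that the higher share of those past 2-fold went from 28.1% to 40.7%. Ribosomal protein genes took 3.34% of neutrophil counts and 11.5% of monocyte counts, and mitochondrial genes 7.23% and 4.86%.

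**Figure D2:**
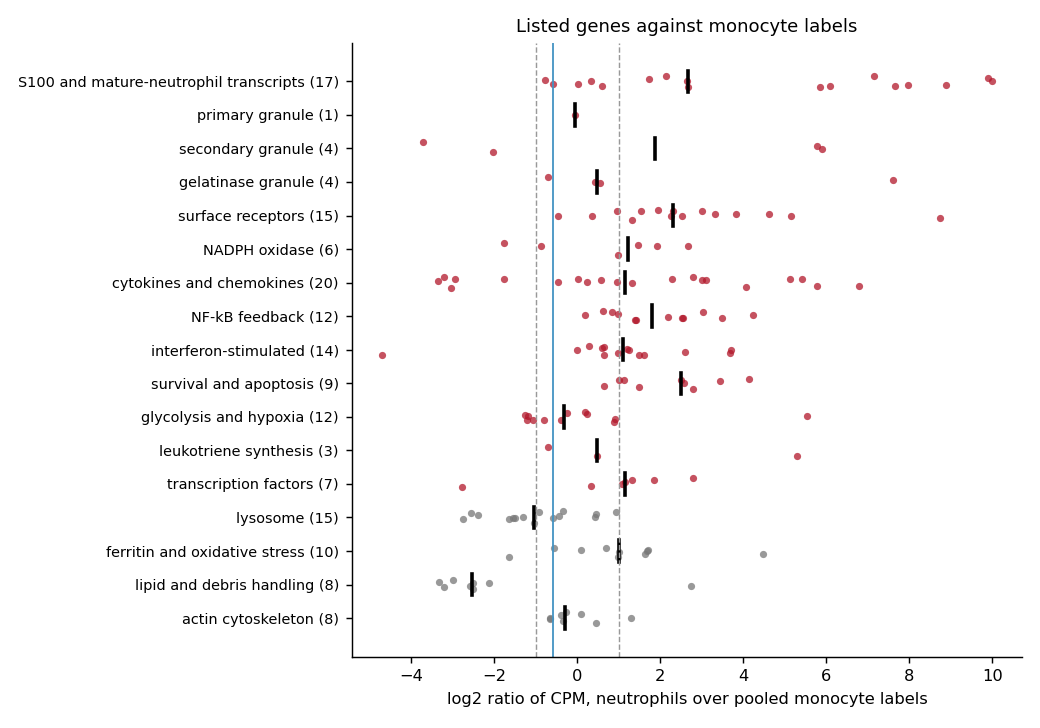
Each point is 1 gene, placed at the log2 ratio of its CPM in neutrophils over that in the pooled monocytes. Black bars are list medians, numbers in brackets are genes compared, dashed lines mark 2-fold and the blue line is the median of all genes, -0.57. Lists drawn in grey were added after the data were seen. The S100, receptor and survival and apoptosis lists have medians of 2.67, 2.30 and 2.51, and lipid and debris handling lies at -2.54.

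The list of S100 and mature-neutrophil transcripts had the highest median of the lists. Of 17 genes compared, 12 were at least 2-fold higher, beside 14.7% of all genes, and 0 were lower, beside 37.6%, with a median of 2.67. S100a9, 1 part of the calprotectin dimer that binds calcium and zinc, stood at 16604 CPM (16441 to 16768) in neutrophils, with 14.7 CPM in the inflammatory, 16.6 in the patrolling and 25.3 in the Cxcl10+ label, a log2 ratio of 9.99 (9.70 to 10.30). Its partner S100a8 stood at 15687 CPM, with 25.4 CPM in the inflammatory, 37.1 in the patrolling and 53.2 in the Cxcl10+ label, a log2 ratio of 8.89 (8.69 to 9.11). No monocyte label came near the neutrophil level of either gene, and both monocyte values lay under the 499 and 428 CPM of free RNA. With the SoupX-corrected values, in which estimated free RNA is taken out, the log2 ratios were 12.47 for S100a9 and 9.66 for S100a8. Il1r2, the decoy receptor for interleukin-1, was at 1932 CPM against 13.7 (log2 7.14, 6.82 to 7.48). Retnlg, a resistin-like secreted protein, was at 307 against 1.23 CPM (log2 7.96, 6.91 to 9.28), and was detected in 12.8% of neutrophils after thinning. Ifitm1, an interferon-induced membrane protein, and Slpi, an inhibitor of neutrophil elastase, had log2 ratios of 5.85 and 2.67. The stefin transcripts Stfa2l1 and Gm5483 were at 498 and 493 CPM with 3 and 5 monocyte counts (log2 9.88 and 9.13, or 11.04 and 10.25 on SoupX values, and 10.92 for Stfa2l1 as a mean over cells), and how reads were divided among these near-identical copies is uncertain. S100a6, by contrast, was at 3285 CPM in neutrophils and 3255 in monocytes.

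Granule transcripts were uneven within and between the granule types. Of the primary granule genes, Mpo (myeloperoxidase), Elane (elastase) and Ctsg (cathepsin G) had 0 counts in all 996 neutrophils, with an exact Poisson upper limit of 1.54 CPM, and Prtn3 (proteinase 3) had 29 counts, 12.1 CPM against 12.5 in monocytes. Secondary granule genes were split. Lcn2, which binds bacterial siderophores, was at 368 CPM (345 to 394) against 6.15 in monocytes (log2 5.91, 5.42 to 6.44), and Ltf (lactoferrin) had 69 counts against 0, at least 5.77 higher on the log2 scale when the monocytes are set to the floor of 3 counts. Camp and Ngp, which mark late bone marrow stages, had 4 and 2 counts, and Fcnb had 0. Chil3, a chitinase-like protein, was at 74.4 CPM against 967 (log2 -3.70, -3.92 to -3.48), and reached -6.16 without the neutrophils carrying monocyte or macrophage markers. Cd177, a surface protein of some neutrophils, was at 11.7 against 47.6 CPM (log2 -2.03, -2.64 to -1.46), and at -2.70 as a mean over cells. Of the gelatinase granule list 1 of 4 genes, Mmp9, was at least 2-fold higher and 0 lower, beside 14.7% and 37.6% of all genes. Mmp9, a gelatinase, was at 1801 CPM (1747 to 1855), with 7.54 CPM in the inflammatory, 8.64 in the patrolling and 25.3 in the Cxcl10+ label (log2 7.60, 7.21 to 8.01). Mmp8, the neutrophil collagenase, had 49.3 against 36.4 CPM (log2 0.44, 0.10 to 0.77), and Adam8 355 against 581.

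C/EBP factors drive granule and S100 genes as neutrophils mature, and the promoters of S100a9 and Lcn2 are shown because these genes lead their lists and hold the core letters of a C/EBP site. Each line is the 250 bases before the annotated start in RefSeq (GRCm38.p6), read 5′ to 3′ along the gene's strand, S100a9 from chr3:90695722-90695971 (minus strand) and Lcn2 from chr2:32387740-32387989 (minus strand). Capitals mark matches to TTGCNNAA, or TTNNGCAA on the other strand.
S100a9: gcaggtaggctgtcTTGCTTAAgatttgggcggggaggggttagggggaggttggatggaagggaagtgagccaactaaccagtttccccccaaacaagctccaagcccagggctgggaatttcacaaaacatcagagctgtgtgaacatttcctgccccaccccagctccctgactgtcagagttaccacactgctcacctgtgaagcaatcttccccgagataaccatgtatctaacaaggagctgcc
Lcn2: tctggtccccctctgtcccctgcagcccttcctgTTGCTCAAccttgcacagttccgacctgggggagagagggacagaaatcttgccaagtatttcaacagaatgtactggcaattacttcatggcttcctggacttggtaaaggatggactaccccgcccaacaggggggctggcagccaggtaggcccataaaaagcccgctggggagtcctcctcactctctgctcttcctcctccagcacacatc
The match began 236 bases before the start of S100a9 and 216 before that of Lcn2. Such a match was present in 5 of 17 S100-list promoters, 4 of 9 secondary granule promoters and 10.8% of 27025 promoters in all. A match in these letters is a description and says nothing of binding. Of the factors themselves, Cebpb was at 5154 CPM in neutrophils and 2418 in monocytes (log2 1.09, 1.06 to 1.13), Cebpe, needed for secondary granules, had 73 counts (30.5 against 8.43 CPM), and Cebpa was at 26.7 against 182 CPM (log2 -2.76, -3.15 to -2.40, and -3.55 without neutrophils carrying monocyte or macrophage markers). Cebpd was not analysed here. Of 7 transcription factors compared, 5 were at least 2-fold higher and 1 lower (14.7% and 37.6% of all genes), with Junb at log2 1.32 and Klf2 at 2.78. None of the 5 cell cycle genes reached 50 counts in either group, and Mki67 had 18 in neutrophils.

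Surface receptors were mostly higher, 12 of 15 at least 2-fold with 0 lower and a median of 2.30, where 14.7% of all genes were higher and 37.6% lower. Cxcr2, the receptor for Cxcl1 and Cxcl2, was at 749 CPM (715 to 784), with 2.78 CPM in the inflammatory, 0.360 in the patrolling and 5.07 in the Cxcl10+ label (log2 8.74, 7.85 to 9.80). As a mean over cells its log2 ratio was 7.86. Csf3r, the receptor for granulocyte colony-stimulating factor, was at 999 CPM against 28.3 (log2 5.14, 4.91 to 5.38), and Trem1, which amplifies Toll-like receptor signals, at 1141 against 80.3 (log2 3.83, 3.69 to 3.98). All 3 monocyte labels lay below the neutrophils for these receptors. Cxcr4, the receptor of aged and marrow-homing neutrophils, was at 1219.7 CPM and at 422 in monocytes (log2 1.53, 1.45 to 1.61). The formyl peptide receptors Fpr1 and Fpr2 had log2 ratios of 4.63 and 3.32, and the C-type lectins Clec4d and Clec4e, sensors of dead cells and microbes, 2.26 and 2.30. Cd14, the co-receptor for lipopolysaccharide often used to mark monocytes, was at 3583 CPM in neutrophils, between the 3785 of inflammatory and the 1948 of patrolling monocytes.

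The parts of the NADPH oxidase, the complex that makes superoxide, were uneven. The cytosolic subunits Ncf1 (p47-phox) and Ncf4 (p40-phox) and the GTPase Rac2 were at least 2-fold higher, at 2.67 (2.50 to 2.85), 1.47 (1.34 to 1.60) and 1.92 (1.81 to 2.03) on the log2 scale. The membrane subunit Cybb (gp91-phox) was at 111 CPM in neutrophils, with 572 CPM in the inflammatory, 157 in the patrolling and 641 in the Cxcl10+ label (log2 -1.76, -1.95 to -1.57), and its partner Cyba (p22-phox) at 1219 against 2228 CPM (log2 -0.87, -0.93 to -0.81). Patrolling monocytes were nearest to neutrophils in Cybb, within 2-fold. In leukotriene synthesis Alox5, the 5-lipoxygenase, was at 89.0 against 2.28 CPM (log2 5.28, 4.48 to 6.22), while its activating protein Alox5ap was at 1152 against 823 and Lta4h at 16.7 against 27.4.

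Cytokines and chemokines took a large part of the neutrophil transcriptome, 4.88% of counts over the 21 listed genes against 1.57% in monocytes. Of 20 compared, 10 were at least 2-fold higher and 5 lower, beside 14.7% and 37.6% of all genes. Cxcl2, a ligand of Cxcr2 that attracts neutrophils, was at 17660.3 CPM (17492 to 17829), with 2893 CPM in the inflammatory, 2490.3 in the patrolling and 1008 in the Cxcl10+ label (log2 2.78, 2.76 to 2.81). Il1b (interleukin-1 beta) was at 8336 CPM, with 1708 CPM in the inflammatory, 344 in the patrolling and 707 in the Cxcl10+ label (log2 3.1, 3.06 to 3.14). The macrophage inflammatory proteins Ccl4 and Ccl3 were at 7892 and 5443 CPM against 186 and 99.3 in monocytes (log2 5.41, 5.32 to 5.50 and 5.78, 5.66 to 5.90). Every monocyte label was below the neutrophils for these 4 transcripts, inflammatory monocytes being nearest for Il1b and Cxcl2. Csf1, the growth factor of macrophages, was at 1455 CPM with 7.14 CPM in the inflammatory, 16.9 in the patrolling and 25.3 in the Cxcl10+ label (log2 6.79, 6.46 to 7.14). Tnf was at 794 against 47.1 CPM (log2 4.08, 3.89 to 4.27), and Il1a had a log2 ratio of 5.12. A pair of brakes on inflammation, the interleukin-1 receptor antagonist Il1rn and the decoy Il1r2 above, were both higher, Il1rn by 2.29 on the log2 scale. Ptgs2, the inducible enzyme of prostaglandin synthesis, had a log2 ratio of 3.01.

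Ccl2, Ccl7, Ccl9 and Ccl6, chemokines of the CC family, were at least 2-fold lower. Ccl2, an attractant of monocytes, was at 317 CPM in neutrophils and 2944 in monocytes (log2 -3.22, -3.32 to -3.11), below the 1125 CPM of free RNA, and Ccl7 was at 168 against 1698 (log2 -3.34, -3.49 to -3.20). Without neutrophils carrying monocyte or macrophage markers these ratios were -3.88 and -4.56. Ccl9 and Ccl6 had log2 ratios of -2.93 and -1.76, with Ccl9 at -3.85 in the same subset. Il6 (29 counts) and Cxcl1 (155 CPM) also lay below their free RNA levels of 96.6 and 606 CPM, so neither is read as expression here.

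**Figure D3:**
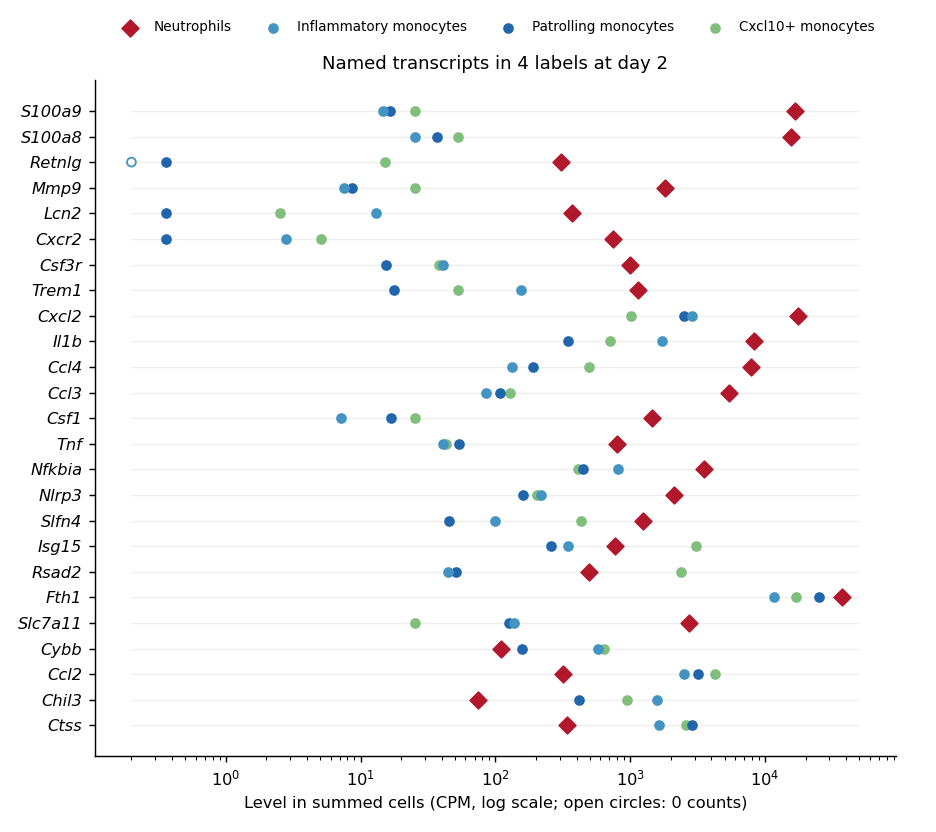
Levels of 25 named transcripts in summed day 2 cells, in CPM on a log scale. Diamonds are the 996 neutrophils, circles the 3 monocyte labels, and an open circle marks 0 counts. Neutrophils lie to the right of all 3 monocyte labels from S100a9 to Slfn4 and for Fth1 and Slc7a11, inside their range for Isg15 and Rsad2, and to their left for Cybb, Ccl2, Chil3 and Ctss.

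Genes induced by NF-kB, including those that switch it off again, were higher in 8 of 12 cases (14.7% of all genes) and lower in 0 (37.6%), with a median of 1.81. Nfkbia, the inhibitor that holds NF-kB in the cytoplasm, was at 3544 CPM (3468 to 3619.7), with 813 CPM in the inflammatory, 448 in the patrolling and 410.3 in the Cxcl10+ label (log2 2.55, 2.49 to 2.60). Nfkbiz, a nuclear co-regulator, was at 834 against 44.6 CPM (log2 4.22, 4.04 to 4.42), and Nlrp3, the inflammasome sensor through which pro-interleukin-1 beta is cleaved, at 2122 against 188 (log2 3.49, 3.40 to 3.59). Tnfaip3 (A20), which ends the signal, and the adhesion molecule Icam1 had log2 ratios of 2.51 and 3.03. Sod2 and Ier3 stood at 0.19 and 0.63. Genes of the survival and apoptosis list were higher in 8 of 9 cases, beside 14.7% of all genes, and lower in 0. This list mixes genes that protect cells with genes that promote their death, such as Bcl2l11. Mcl1, on which neutrophil survival depends, was at 3371 against 1195 CPM (log2 1.50, 1.45 to 1.54) and Gadd45b at 1989.6 against 183 (log2 3.44, 3.35 to 3.54). Bcl2a1b had a log2 ratio of 2.58 and Bcl2a1a 4.13, but these near-identical copies could have exchanged reads.

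The promoters of Cxcl2 and Nfkbia are shown because both transcripts were abundant in neutrophils and both windows hold an NF-kB core. They are the 250 bases before the RefSeq start (GRCm38.p6), for Cxcl2 chr5:90903649-90903898 (plus strand) and for Nfkbia chr12:55492648-55492897 (minus strand). Capitals mark GGG, any 2 bases and TTTCC, or the reverse complement of this on the other strand.
Cxcl2: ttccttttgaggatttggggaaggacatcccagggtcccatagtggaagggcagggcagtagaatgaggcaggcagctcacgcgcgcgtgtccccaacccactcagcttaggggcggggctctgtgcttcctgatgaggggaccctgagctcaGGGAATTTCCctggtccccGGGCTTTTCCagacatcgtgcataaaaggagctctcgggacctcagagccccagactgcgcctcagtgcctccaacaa
Nfkbia: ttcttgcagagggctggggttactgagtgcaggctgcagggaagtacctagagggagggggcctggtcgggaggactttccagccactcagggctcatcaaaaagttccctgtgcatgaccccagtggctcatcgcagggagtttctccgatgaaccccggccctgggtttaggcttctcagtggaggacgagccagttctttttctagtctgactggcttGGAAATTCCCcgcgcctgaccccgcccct
Matches began 97 and 78 bases before the start of Cxcl2 and 29 before that of Nfkbia. They were found in 7 of 16 cytokine and chemokine promoters (Il1rn, Il6, Csf1, Cxcl1, Cxcl2, Cxcl3 and Ccl9), in 3 of 9 of the NF-kB list (Nfkbia, Nfkb2 and Tnfaip3) and in 1.65% of all promoters.

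Interferon-stimulated genes were uneven across the monocyte labels. Against pooled monocytes 7 of 14 were at least 2-fold higher in neutrophils and 1 lower (14.7% and 37.6% of all genes), with a median log2 ratio of 1.10 (0.72, and 6 higher, without neutrophils carrying monocyte or macrophage markers), but the pool averaged unlike labels. Isg15, a ubiquitin-like protein, was at 771 CPM (736 to 807) in neutrophils, with 345 CPM in the inflammatory, 261 in the patrolling and 3097 in the Cxcl10+ label. Rsad2 (viperin) was at 498 CPM, with 44.9 CPM in the inflammatory, 51.1 in the patrolling and 2378 in the Cxcl10+ label. Ifit1, which binds foreign RNA caps, was at 279 CPM, with 8.34 CPM in the inflammatory, 6.12 in the patrolling and 569.8 in the Cxcl10+ label. For these 3 genes neutrophils stood above the 2 larger monocyte labels and below the Cxcl10+ label. Cxcl10, a chemokine for T cells, was at 210.1 CPM against 1087 in the label named for it. The Schlafen genes differed, with Slfn4 at 1242 CPM above all 3 labels (99.6 CPM in the inflammatory, 45.4 in the patrolling and 428 in the Cxcl10+ label) and Slfn1 at 445 against 34.6. Mx1 had 3 counts in neutrophils and 185 in monocytes (log2 -4.70, -6.99 to -3.13, and -5.59 without neutrophils carrying monocyte or macrophage markers). Ifit2 went from a log2 ratio of 1.21 to 0.69 without neutrophils carrying monocyte or macrophage markers.

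Promoters of Isg15, Ifit1 and Rsad2 are shown because these 3 genes gave the interferon pattern across labels and each window holds the repeat of the interferon response element, GAAA, any 2 bases and GAAA, or its reverse complement, marked in capitals. They are the 250 bases before the RefSeq start (GRCm38.p6), for Isg15 chr4:156200819-156201068 (minus strand), for Ifit1 chr19:34640639-34640888 (plus strand) and for Rsad2 chr12:26456453-26456702 (minus strand).
Isg15: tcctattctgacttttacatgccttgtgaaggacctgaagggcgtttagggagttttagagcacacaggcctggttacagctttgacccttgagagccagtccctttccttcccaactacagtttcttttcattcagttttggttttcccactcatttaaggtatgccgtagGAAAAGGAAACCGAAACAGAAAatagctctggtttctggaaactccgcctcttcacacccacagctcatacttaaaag
Ifit1: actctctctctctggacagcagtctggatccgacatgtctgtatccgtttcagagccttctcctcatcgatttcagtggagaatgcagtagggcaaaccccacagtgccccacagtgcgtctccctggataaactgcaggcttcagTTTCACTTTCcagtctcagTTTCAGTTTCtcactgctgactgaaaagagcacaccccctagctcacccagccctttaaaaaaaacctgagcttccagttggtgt
Rsad2: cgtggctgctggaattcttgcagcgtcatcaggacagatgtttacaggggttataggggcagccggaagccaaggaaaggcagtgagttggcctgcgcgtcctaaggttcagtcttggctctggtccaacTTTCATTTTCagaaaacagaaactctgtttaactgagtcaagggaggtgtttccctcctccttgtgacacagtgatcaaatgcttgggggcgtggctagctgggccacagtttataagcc
In Isg15 3 overlapping matches began 78, 72 and 66 bases before the start, in Ifit1 2 matches began at 104 and 85, and in Rsad2 1 began at 120. The element was present in 5 of 12 promoters of the list (Isg15, Ifit1, Ifit3, Rsad2 and Gbp2) and in 3.46% of all promoters.

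Iron and redox genes were examined next, in lists added after the data were seen. Fth1, the ferritin heavy chain that stores iron, was at 37089 CPM in neutrophils, with 11669 CPM in the inflammatory, 25180.2 in the patrolling and 16872 in the Cxcl10+ label (log2 0.99, 0.98 to 1.01). Slc7a11, the cystine importer that feeds glutathione synthesis, was at 2746 CPM, with 137 CPM in the inflammatory, 126 in the patrolling and 25.3 in the Cxcl10+ label (log2 4.47, 4.35 to 4.58). Txnrd1, Gclm and Sqstm1, targets of the oxidative stress factor Nrf2, had log2 ratios of 1.69, 1.64 and 1.70, whereas Hmox1, of the same group, was at 362 against 529 CPM and the peroxiredoxin Prdx1 at log2 -1.63 (-1.72 to -1.54), or -2.30 without neutrophils carrying monocyte or macrophage markers. Of this list 5 of 10 genes were higher and 1 lower, against 14.7% and 37.6% of all genes.

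Lysosome and lipid-handling transcripts differed from monocytes to unlike extents. Of 15 lysosomal genes 8 were at least 2-fold lower, where 37.6% of all genes were, and 0 higher, among them the cathepsins Ctss (log2 -2.76, -2.86 to -2.66) and Ctsl (-2.55, -2.64 to -2.46), which reached -3.41 and -3.24 without neutrophils carrying monocyte or macrophage markers. With median-of-ratios factors the count was 6 lower, where 28.5% of all genes were, and 1 higher. Fabp5, a fatty acid carrier, was at 420.2 against 4189 CPM, and Spp1 (osteopontin) at 1609 against 6988, with 12111 in patrolling monocytes. Of 8 lipid and debris genes 7 were lower, against the same 37.6%. The exception was the tetraspanin Cd9, at 2274 against 342 CPM (log2 2.73, 2.66 to 2.81). The median of this list went from -2.54 to -3.84 without the neutrophils that carried monocyte or macrophage markers, and Fabp5 from -3.32 to -5.03.

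Glycolytic genes were not uniformly shifted. Slc2a3, a high-affinity glucose transporter, was at 188 against 4.04 CPM (log2 5.54, 4.94 to 6.21), while Gapdh, Ldha, Eno1 and the hypoxia factor Hif1a had log2 ratios of -1.18, -1.25, -1.22 and -1.07. The list median changed sign with the scaling, from -0.32 by totals to 0.02 by median-of-ratios factors, with 4 lower and 1 higher of 12 by totals and 0 lower and 3 higher by those factors. Over all genes 37.6% and 28.5% were lower and 14.7% and 19.6% higher by the same scalings. The actin cytoskeleton list did the same, with medians of -0.30 and 0.03, and 1 gene past 2-fold under both, the actin-bundling Lcp1 (log2 1.30).

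Ranking 5491 genes with at least 100 counts and detection in 10% of cells of either group put S100a9, Stfa2l1, Gm5483, Asprv1, S100a8, Cxcr2, Il1f9 and Siglecf at the top. With so few monocyte counts behind several of these ratios, their order is not fixed. Asprv1, an aspartic protease, was at 388 CPM with 4 monocyte counts (log2 9.11, or 9.71 on SoupX values), and Il1f9, an interleukin-36 cytokine, at 355 CPM with 5. Siglecf, a sialic acid receptor best known on eosinophils, had 158 counts (66.0 CPM, 56.1 to 77.1) against 1 in monocytes (log2 8.55, 6.05 to 13.87, or 9.19 as a mean over cells) and 4.26 CPM in free RNA. The interval of its ratio takes in those of Retnlg (7.96) and Mmp9 (7.60), which were not among the 8, so its place there rests on that 1 count. It was detected in 128 neutrophils (12.9%), in 25 of them with 2 or more counts and in none with more than 4, and in 11 of 2498 cells with other labels. Of the 128, 0 held a count of the 5 other eosinophil genes (Ear1, Ear2, Ear6, Prg2 and Epx), which had 9 counts in all neutrophils together. Depth was similar with and without Siglecf, at medians of 2234.5 and 2100 counts. The bottom of the ranking rested on 1 to 5 neutrophil counts a gene. Sdc1 (syndecan-1) had 5 against 371 in monocytes (log2 -4.96, -6.59 to -3.73), Rasa4 3 against 233, Ms4a8a 3 against 217, P2rx7 (an ATP-gated channel) 2 against 146 and Spire1 2 against 142. Lrrc16a, Vdr (the vitamin D receptor) and Zranb3 had 1 each, against 131, 113 and 101.

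Neutrophils also differed among themselves. Spread was read after thinning every cell to 1000 counts, as the variance over cells divided by the mean, which is near 1 for counting alone. The ratio grows with a gene's mean and the named genes were chosen partly for their level, so the values describe each gene and rank none. Over 1443 genes with a mean of at least 0.1 the median was 1.18. Haemoglobin genes reached 63.9 to 249 from counts in under 2% of cells. S100a9 (variance over mean 25.3) had a median of 10, quartiles of 2 and 27.2 and a highest value of 127, with 143 cells at 0. Ccl4 had a median of 4, quartiles of 0 and 11 and a highest value of 74 (variance over mean 15.2). Il1b had a median of 6, quartiles of 2 and 13 and a highest value of 63 (9.81), and Cxcl2 a median of 15, quartiles of 7 and 25 and a highest value of 95 (11.7). In S100a9, Ccl4 and Il1b the cells thus ran from none to more than 60 counts in 1000, and the values of Mcl1, Cxcr2 and Csf3r were 1.71, 1.59 and 1.41. Retnlg and Gm5483 were detected in 12.8% and 16.3% of the thinned cells, and 91.6% and 89.0% of their counts sat in the 10% with the most. Such a share is high for any gene detected in few cells. Fth1 was detected in 99.8% of neutrophils and had a ratio of 19.2.

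**Figure D4:**
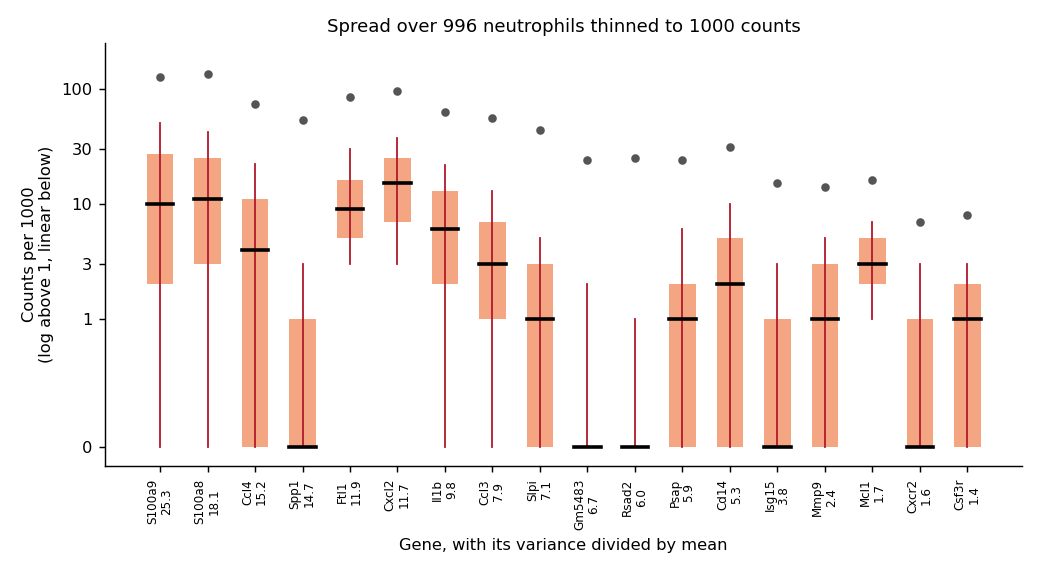
Counts per 1000 over 996 thinned neutrophils for 18 named genes, in order of variance over mean, printed under each gene. Boxes span the quartiles, thin lines the 10th to 90th percentile, black bars are medians and dots the highest cell, on an axis that is linear below 1 and logarithmic above. S100a9 (25.3) runs from 0 to 127 counts and Csf3r (1.41) from 0 to 8.

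To see which transcripts varied together, neutrophils were put in order by the thinned counts of Il1b, Cxcl2, Ccl3, Ccl4 and Tnf and divided into 4 ranges of about equal size. The 267 cells of the lowest range held 1 to 22 of these counts and the 243 of the highest 54 to 178. Genes of NF-kB feedback went from 8.66 to 18.9 counts per 1000, a ratio of 2.19 (2.08 to 2.30), led by Tnfaip3 (3.04, 2.40 to 3.87), Nlrp3 (2.93, 2.56 to 3.35) and Nfkbiz (2.75, 2.24 to 3.40). The other cytokines had a ratio of 1.70 (1.60 to 1.80), with Ptgs2 at 3.45 (2.92 to 4.08), and the survival and apoptosis list 1.44 (1.36 to 1.54). S100 and mature transcripts were nearly level, at 0.912 (0.890 to 0.934), and ribosomal protein genes were at 0.618 (0.597 to 0.640). The interferon list was at 1.44 in this draw of the thinning and 1.80 in another, and secondary granule genes at 1.65 and 1.27. All 15 neutrophils of more than 8000 counts lay in the lowest range. Without neutrophils carrying monocyte or macrophage markers the NF-kB ratio was 2.10. All lists share a total of 1000 counts per cell, so a list can be lower because another is higher.

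Taking the cytokines apart, in orderings chosen after the data were seen, showed several lists that moved in opposite directions with Il1b and with Ccl3 and Ccl4. The transcripts themselves were weakly related across cells, with a Spearman correlation of -0.12 for Il1b with either Ccl3 or Ccl4. From the 291 neutrophils with 0 to 2 counts of Il1b to the 241 with 14 to 63, lysosomal genes went from 16.5 to 6.24 counts per 1000, a ratio of 0.377 (0.356 to 0.400). Ferritin and oxidative stress genes had a ratio of 0.488 (0.477 to 0.500) and lipid and debris genes 0.477 (0.439 to 0.518). Single genes carried the same direction, with Cd63 (a lysosomal tetraspanin) going from 2.26 to 0.485, Psap (prosaposin) from 4.01 to 1.05, Ctsb (cathepsin B) from 2.24 to 0.672 and Ftl1 (ferritin light chain) from 21.7 to 8.12 counts per 1000. In the opposite direction Ptgs2 had a ratio of 3.96 (3.37 to 4.67), Trem1 3.22 (2.71 to 3.83), Nlrp3 2.65 (2.34 to 3.01) and Cxcr2 2.52 (2.06 to 3.1). Actin cytoskeleton genes had a ratio of 1.48 (1.43 to 1.52) and the S100 list 1.4 (1.37 to 1.44). Csf1 went down with Il1b, at 0.470 (0.402 to 0.548).

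From the 250 neutrophils with 0 to 2 counts of Ccl3 and Ccl4 to the 235 with 19 to 93, the same lists ran the other way. Lysosomal genes had a ratio of 1.70 (1.60 to 1.80), ferritin and oxidative stress genes 1.60 (1.56 to 1.64), actin genes 0.643 (0.623 to 0.664) and the S100 list 0.693 (0.676 to 0.710). Ftl1 went from 8.17 to 17.6 counts per 1000, Cd63 from 0.672 to 1.60 and Actb from 9.20 to 5.64. Rsad2 (3.58, 2.67 to 4.84), Il1f9 (3.13, 2.25 to 4.42), Tnf (2.87, 2.30 to 3.61), Vegfa (2.65, 1.83 to 3.90) and Il1rn (2.56, 2.27 to 2.90) were higher in the highest range, and Retnlg (0.362, 0.254 to 0.510), Cxcr2 (0.584, 0.478 to 0.713) and Csf3r (0.579, 0.483 to 0.694) lower. NF-kB feedback was higher in both orderings, 1.70 with Il1b and 1.43 with Ccl3 and Ccl4. So was the interferon list, at 1.60 and 1.42. The lysosomal ratios were 0.387 and 1.58 in the other draw, and 0.350 and 1.80 without neutrophils carrying monocyte or macrophage markers. Depth moved a little along both, from a median of 2305 to 2039 counts with Il1b and from 1926.5 to 2347 with Ccl3 and Ccl4, before thinning.

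Ordering by S100a8 and S100a9 set the lowest 263 neutrophils, with 0 to 7 counts of the pair, against the highest 244, with 54 to 224. Secondary granule genes went from 0.236 to 0.959 counts per 1000, a ratio of 4.07 (3.06 to 5.47), with Lcn2 at 6.13 (4.32 to 8.89). The rest of the S100 list was at 1.93 (1.86 to 2.02), with Retnlg at 15.4 (9.16 to 28.1), Ifitm1 at 2.66 (2.32 to 3.05) and Slpi at 2.26 (1.96 to 2.59). Gm5483 and Stfa2l1 had ratios of 9.08 (6.53 to 12.9) and 6.72 (4.91 to 9.39). Lysosomal genes had a ratio of 0.466 (0.439 to 0.495), led by Psap, which went from 3.50 to 0.660 counts per 1000, and NF-kB feedback was at 0.838 (0.798 to 0.881), with Icam1 at 0.300 (0.212 to 0.416). Over the 5 markers of the label, which include the ordering pair, the lowest range held a median of 8 counts at full depth and the highest 171.5. The lowest range included 12 of the 15 deepest neutrophils, and without those carrying monocyte or macrophage markers the secondary granule ratio was 3.60 and the lysosomal 0.474. The 273 neutrophils with at least 1 thinned count of the secondary granule list had 1.43 times the S100-list level of the 723 at 0, and 0.732 times the lysosomal level.

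**Figure D5:**
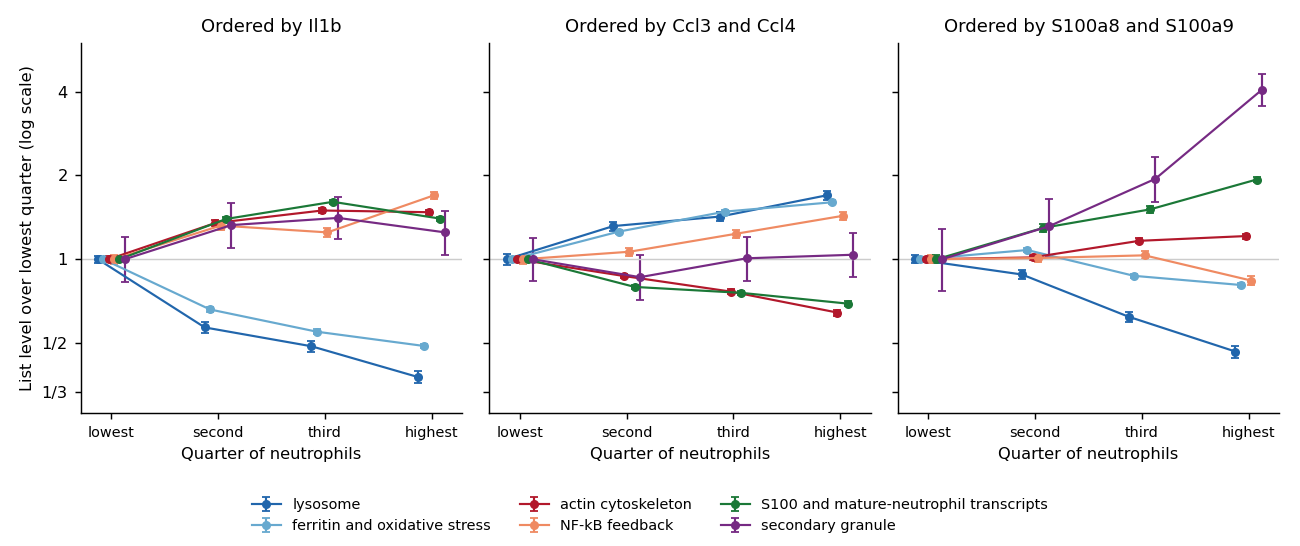
Levels of 6 lists in 4 ranges of the 996 thinned neutrophils, relative to the lowest range, on a log scale, with the cells ordered by Il1b (left), Ccl3 and Ccl4 (middle) and S100a8 and S100a9 (right). Bars are 95% Poisson intervals of each level, and the genes used for an ordering are left out of the lists. The lysosomal line ends at 0.377 with Il1b, 1.70 with Ccl3 and Ccl4 and 0.466 with S100a8 and S100a9, where the secondary granule line ends at 4.07.

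Interferon-stimulated transcripts were spread unevenly over neutrophils. After thinning, 431 cells held 0 or 1 count of the list and 223 held 6 to 63. At least 3 monocyte and macrophage marker counts were held by 40 and 34 of these cells, and 11 of the 15 deepest neutrophils lay in the lower group. Cxcl10 went from 0.0557 to 0.655 counts per 1000 between these ranges, a ratio of 11.8 (7.60 to 18.9), and Ifitm6 had a ratio of 2.55 (1.84 to 3.54). Retnlg (0.342, 0.222 to 0.509) and Cd63 (0.411, 0.340 to 0.493) were lower. Lysosomal genes had a ratio of 0.700 (0.663 to 0.738), and 0.717 without neutrophils carrying monocyte or macrophage markers. In the other draw the lowest range held 253 cells, all at 0 counts, so it is a different set of cells, and the ratio was 0.586 for lysosomal genes and 0.523 for Retnlg. Between single genes over the 996 thinned cells, which share their library and total, the Spearman correlation was 0.76 for S100a8 and S100a9, 0.54 for Ccl3 and Ccl4, 0.42 for Isg15 and Rsad2, 0.42 for Ftl1 and Psap and -0.42 for Ftl1 and Il1b. Weaker pairs included Cxcl2 with Ccl3 at 0.32, Il1b with Cxcl2 at 0.25, Il1b with Ccl3 or Ccl4 at -0.12 and S100a9 with Ccl4 at -0.11.

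At day 7 the annotation gave the same name to 22 barcodes, with a median of 1525.5 counts. Of these, 3 held at least 2 counts of the 5 markers, so most did not show the label in its own genes, and no comparison of neutrophils between the days was made.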

How the data were processed

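Per the labels and the study's methods, whole muscle was digested enzymatically, erythrocytes were lysed and libraries were made with 10x v3 3′ chemistry. The deposited counts were UMI counts per gene and barcode that the authors made with Cell Ranger on mm10 (version 3.1.0 in the submitters' processing notes, which also list Seurat 3.1.5, and 3.0.1 in the file headers), for called and for all barcodes. The deposited estimated counts were the same values after the authors removed ambient RNA with SoupX. Cell names were taken from the deposited annotation, for which the authors clustered a large merged collection and named clusters from canonical genes. Which integration they came from is not given in the sources used here. DoubletFinder was run by the authors, and no further doublet caller was used.

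Counts were summed over cells and scaled to CPM, without division by gene length. Genes with at least 50 counts in neutrophils or in the 3 pooled monocyte labels were compared, and 2-fold was the threshold. Ratio intervals were exact conditional binomial, share intervals Clopper-Pearson and level intervals Poisson, and a group at 0 was set to the floor of 3 counts. Each cell was thinned without replacement to 1000 counts for spread and orderings. With 1 library a group there was no test across samples. Scripts were tested on simulated data (Python 3.11.15, numpy 2.4.6, scipy 1.17.1, pandas 2.3.3). The 996 members and the gene lists were chosen with earlier results of these data known. Genes were named from the lists by level or size of difference, with the 8 highest and 8 lowest ratios among genes of at least 100 counts in a group and detection in 10% of its cells, leaving out mitochondrial, ribosomal protein, haemoglobin and myofibre genes. The lysosome, ferritin, lipid and actin lists, the orderings by single transcripts and by the interferon list, the second draw and the limit of 4000 counts were added after seeing the data. Day 2 held 41123913 counts in 4836 called barcodes. Promoters came from RefSeq (GRCm38.p6), where 27025 genes had one.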

Additional observations from a re-analysis of the deposited data

Results flagged for a closer look

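Barcodes outside the annotation also carried the 5 neutrophil markers. Of 1299 called day 2 barcodes that the annotation leaves out, 127 (9.78%, 8.22 to 11.5) held at least 5 marker counts. These barcodes lie outside the comparisons above, and their median depth over all 1299 was 2076 counts. Among barcodes not called as cells, 23 of 43398 with 101 to 250 counts and 33 of 9136 with 251 to 500 counts (0.361%) held at least 5 marker counts, 11 and 20 of them at least 10. Above 500 and up to 1000 counts 1 of 2321 did, above 1000 counts 1 of 675, and in the background of 1 to 100 counts 2 of 704377. The markers summed to 984 CPM in that background, 569 and 495 CPM at 101 to 250 and 251 to 500 counts, and 132 and 73.3 CPM above. Whether these barcodes were neutrophils of low RNA content was not tested.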

How the results depend on the processing

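No paired analysis was possible because each time point has 1 library and the comparisons lie within it. Of 154 named genes followed across the alternatives, none at least 2-fold higher or lower changed direction under 7 alternatives (corrected values, the study's limits, at least 2 marker counts, at most 4000 counts, no monocyte or macrophage markers, means over cells, median-of-ratios scaling). Prtn3, at -0.04 on the log2 scale, ranged from -0.32 to 0.29 and so had no fixed direction. Between 0 and 6 of 154 lost the 2-fold threshold, most under median-of-ratios scaling (6 lost, 8 gained), and up to 19 moved by more than 1.5-fold, most without neutrophils carrying monocyte or macrophage markers. Without the 50-count filter 2251 genes were at least 2-fold higher, and under the other alternatives between 1006 and 1427. The neutrophil share was 22.3% with the study's limits and 30.8% for barcodes with at least 2 marker counts, a share of all 4836 called barcodes that includes 299 of 2498 cells with other labels. The share with the markers was 92.5% at 5 counts, 95.4% on SoupX values and 94.7% after thinning. The median variance over mean of named genes, 2.00 at 1000 counts, was 3.17 at 2000 counts, where 427 shallower cells were left out, and 1.52 at 500. Ordering by the 5 cytokines gave 3 of 12 lists at least 1.5-fold higher. NF-kB feedback and the other cytokines were among them in both draws. The third was secondary granule in the main draw and interferon in the second. Without neutrophils carrying monocyte or macrophage markers 2 remained. With Il1b the count was 2 to 4 and with S100a8 and S100a9 2 or 3, over the same settings. Ordering by Ccl3 and Ccl4 gave 0 of 12 and by the interferon list 0 of 11 (1 in the second draw), not counting the added lists, of which lysosome and ferritin were at 1.70 and 1.60 with Ccl3 and Ccl4. Single genes of few counts, such as the lowest-ranked ones, are limited by depth, and 1 library leaves variation between mice unmeasured.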
